A study of Mus musculus with 8 samples.

Results

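The genes described here encode the pyruvate entry step of mitochondria, the tricarboxylic acid (TCA) cycle with succinate dehydrogenase, and the malate-aspartate shuttle. They were named by a fixed list of 33 symbols, all 33 were among the 19857 genes of the count table, and 31 had enough counts to be tested. The list was drawn up by function, with earlier results of these data known. Tongue RNA was compared between 4 wild type (WT) mice and 4 mice with the A17 allele of Pabpn1 on 1 chromosome and a normal allele on the other (A17/+), all female and 12 months old. The allele lengthens the alanine stretch of PABPN1, the change behind oculopharyngeal muscular dystrophy in people, in which eyelid, throat and tongue muscles weaken late in life. The strain and any other alleles are not given in the sources used here. For each mouse 40 cryosections through the mid-tongue were pooled for RNA, so every library mixes muscle with epithelium, vessels and connective tissue. In such bulk samples fewer cells of a type and less RNA per cell cannot be told apart.

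Pyruvate made by glycolysis crosses the inner mitochondrial membrane through a carrier and is turned into acetyl-CoA by the pyruvate dehydrogenase complex, which kinases switch off and phosphatases switch on. The TCA cycle oxidises acetyl-CoA and hands electrons to NAD+ and, through succinate dehydrogenase, directly to the respiratory chain. The malate-aspartate shuttle carries the electrons of cytosolic NADH into the matrix by moving malate and aspartate instead of NADH itself. Working muscle depends on all of these for aerobic ATP supply.

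Libraries held 205696 to 485326 counts, each count being a molecule tagged at its 3' end. Such reads fall mainly in the last exon and the 3' untranslated region, so a value describes the whole gene and no single exon. Levels are CPM, counts scaled by the library total and a TMM factor that corrects for differences in composition, and are given for libraries 1 to 4 of each genotype. Gene positions are those of mm10. Fold changes are A17/+ relative to WT from edgeR's quasi-likelihood fit over all 5066 genes tested, with p-values adjusted by Benjamini and Hochberg and a threshold of 0.05. The library A17/+ 1 had the lowest level of its genotype for 17 of the 19 members called below, and WT 1 held 923 counts of lingual salivary gland markers against 0 to 3 in the other WT libraries, so results that change without them are also given without them. All 12 skeletal muscle markers were detected in the table, with summed levels of 78532 to 107690 CPM in WT and 100730 to 121749 CPM in A17/+.

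Of the 31 members tested, 19 rose and 0 fell in A17/+. At an unadjusted p under 0.05 the number was 23, a looser threshold that at least 1185 of the 5066 genes passed in either direction. At the adjusted threshold 6.34% of all genes tested were called higher and 2.61% lower. The median log2 fold change was 1.04 over the members tested and 0.01 over all genes tested, and 29 of the 31 members had a positive value, as did 50.5% of all genes. For 12 members, 11 of them among the 19, all 4 A17/+ levels lay above all 4 WT levels. That was so for 8.17% of all genes tested, and the reverse order held for 0 members and 6.75% of all genes. A log2 fold change above 1 was found for 16 of the 31 members and for 7.64% of all genes. The 33 genes together took 0.639%, 0.585%, 0.603% and 0.630% of the scaled counts in WT and 0.789%, 0.892%, 0.887% and 0.884% in A17/+. By role the members called were 2 of 2 pyruvate carrier genes, 3 of 5 of the dehydrogenase complex, 1 of 3 tested regulators, 5 of 12 cycle enzymes, 3 of 4 succinate dehydrogenase genes and 5 of 5 tested shuttle genes.

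**Figure D1:**
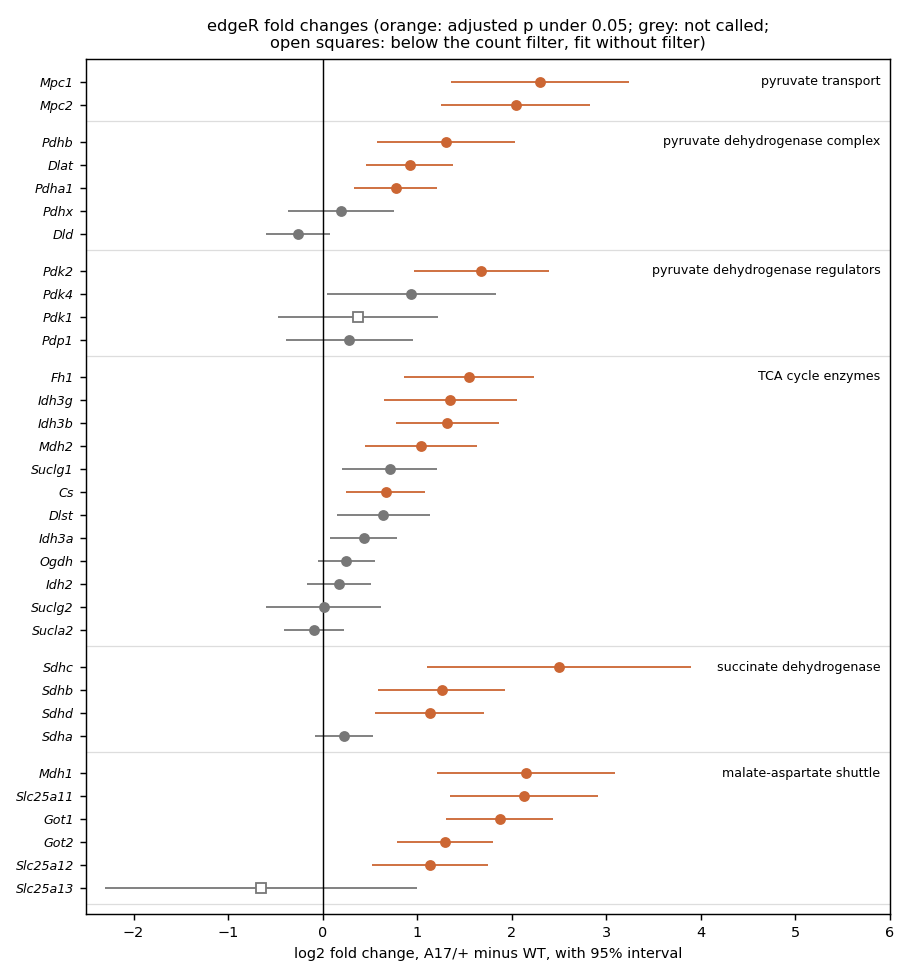
Log2 fold change of each gene (x axis, A17/+ minus WT, point) with its 95% interval (line), grouped by role. The 19 genes called higher (orange) lie between 0.67 and 2.50, the genes not called (grey) include Dld at −0.26 and Sucla2 at −0.09, and open squares are the 2 genes below the count filter.

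The mitochondrial pyruvate carrier is made of the proteins MPC1 and MPC2, and both genes rose. Mpc1 (ENSMUSG00000023861, chr17:8282904-8297661, plus strand) had 18.3, 2.96, 9.43 and 15.1 CPM in WT and 28.8, 76.0, 61.4 and 70.1 CPM in A17/+. Its level rose 4.92-fold (log2 fold change 2.30, SE 0.44, edgeR adjusted p = 0.00566). Mpc2 (ENSMUSG00000026568, chr1:165460637-165481214, plus strand) had 40.8, 29.6, 31.4 and 40.3 CPM in WT and 53.4, 213, 156 and 161 CPM in A17/+. The rise was 4.11-fold (log2 2.04, SE 0.37, edgeR adjusted p = 0.00486). Neither gene's groups overlapped, and for both A17/+ 1 was the lowest of its genotype. Mpc1 rests on 16 counts in WT and 95 in A17/+, has an annotated copy, Mpc1-ps, that is in the count table, and its 3' end overlaps 4930506C21Rik on the other strand. Since neither the strand setting nor the treatment of reads with several matches is given, its reads cannot be told apart from theirs.

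Within the pyruvate dehydrogenase complex Pdha1, Pdhb and Dlat rose, and Dld and Pdhx were not called. Pdha1 and Pdhb encode the alpha and beta chains of the decarboxylase, Dlat the acetyltransferase core, Dld the dihydrolipoamide dehydrogenase and Pdhx the protein that anchors it. Pdha1 (ENSMUSG00000031299, chrX:160122209-160138413, minus strand) had 381, 228, 217 and 202 CPM in WT and 449.9, 344, 517 and 449 CPM in A17/+, a 1.71-fold rise (log2 0.77, SE 0.21, edgeR adjusted p = 0.0275). WT 1 lay above A17/+ 2, so its groups overlapped. Pdhb (ENSMUSG00000021748, chr14:8165996-8173025, minus strand) had 22.4, 20.7, 22 and 40.3 CPM in WT and 37.0, 81.0, 79.4 and 49.3 CPM in A17/+, a 2.47-fold rise (log2 1.30, SE 0.35, edgeR adjusted p = 0.0252), and WT 4 lay above A17/+ 1. Dlat (ENSMUSG00000000168, chr9:50634633-50659780, minus strand) had 77.5, 82.8, 72.3 and 75.6 CPM in WT and 119, 124, 166 and 169 CPM in A17/+. It rose 1.89-fold (log2 0.92, SE 0.22, edgeR adjusted p = 0.0145) with no overlap, and its WT mean was 77.0 ± 4.43 CPM (SD, n = 4).

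The remaining subunits were not called. Dld, which also serves the alpha-ketoglutarate and branched-chain keto acid dehydrogenases, had 646, 858, 914 and 1003 CPM in WT and 826, 651, 683 and 644 CPM in A17/+. This gave a log2 fold change of −0.26 with a 95% interval from −0.60 to 0.08 (edgeR adjusted p = 0.339), and the highest A17/+ value was in A17/+ 1. Without both libraries numbered 1 it was −0.45 and was called lower (adjusted p = 0.0419). Pdhx had a mean of 51.8 ± 13.1 CPM for WT against 60.0 ± 10.8 CPM for A17/+ (SD, n = 4), with an interval from −0.37 to 0.75. Pdha1 overlaps Map3k15 on the other strand at its 3' end.

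Among the regulators, the kinase gene Pdk2 rose. Pdk2 (ENSMUSG00000038967, chr11:95026258-95041354, minus strand) had 30.6, 47.3, 34.6 and 20.2 CPM in WT and 53.4, 139, 99.8 and 143 CPM in A17/+. The difference was 3.20-fold (log2 1.68, SE 0.34, edgeR adjusted p = 0.00726) and the groups did not overlap. Pdk4, the kinase that fasting and glucocorticoids induce, had 87.6, 101, 72.3 and 75.6 CPM in WT and 314, 165, 87.0 and 70.1 CPM in A17/+. The A17/+ libraries spanned the WT range and lay above it in A17/+ 1 and 2. The log2 fold change of 0.94 did not pass (95% interval 0.04 to 1.83, edgeR adjusted p = 0.178) and was 0.31 without A17/+ 1, whereas for Pdk2 that library was the lowest of its genotype. In the fit without the count filter Pdk4 was called higher (0.90, adjusted p = 0.0130). Pdp1, the phosphatase that reactivates the complex, had 61.1, 65.1, 47.1 and 25.2 CPM in WT and 53.4, 35.5, 87.0 and 75.2 CPM in A17/+ (log2 0.28, 95% interval −0.39 to 0.95). Pdk1, a kinase induced by hypoxia, lay below the count filter with 27 counts in WT and 45 in A17/+. In the fit without the filter it had 0.37, with an interval from −0.47 to 1.22.

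**Figure D2:**
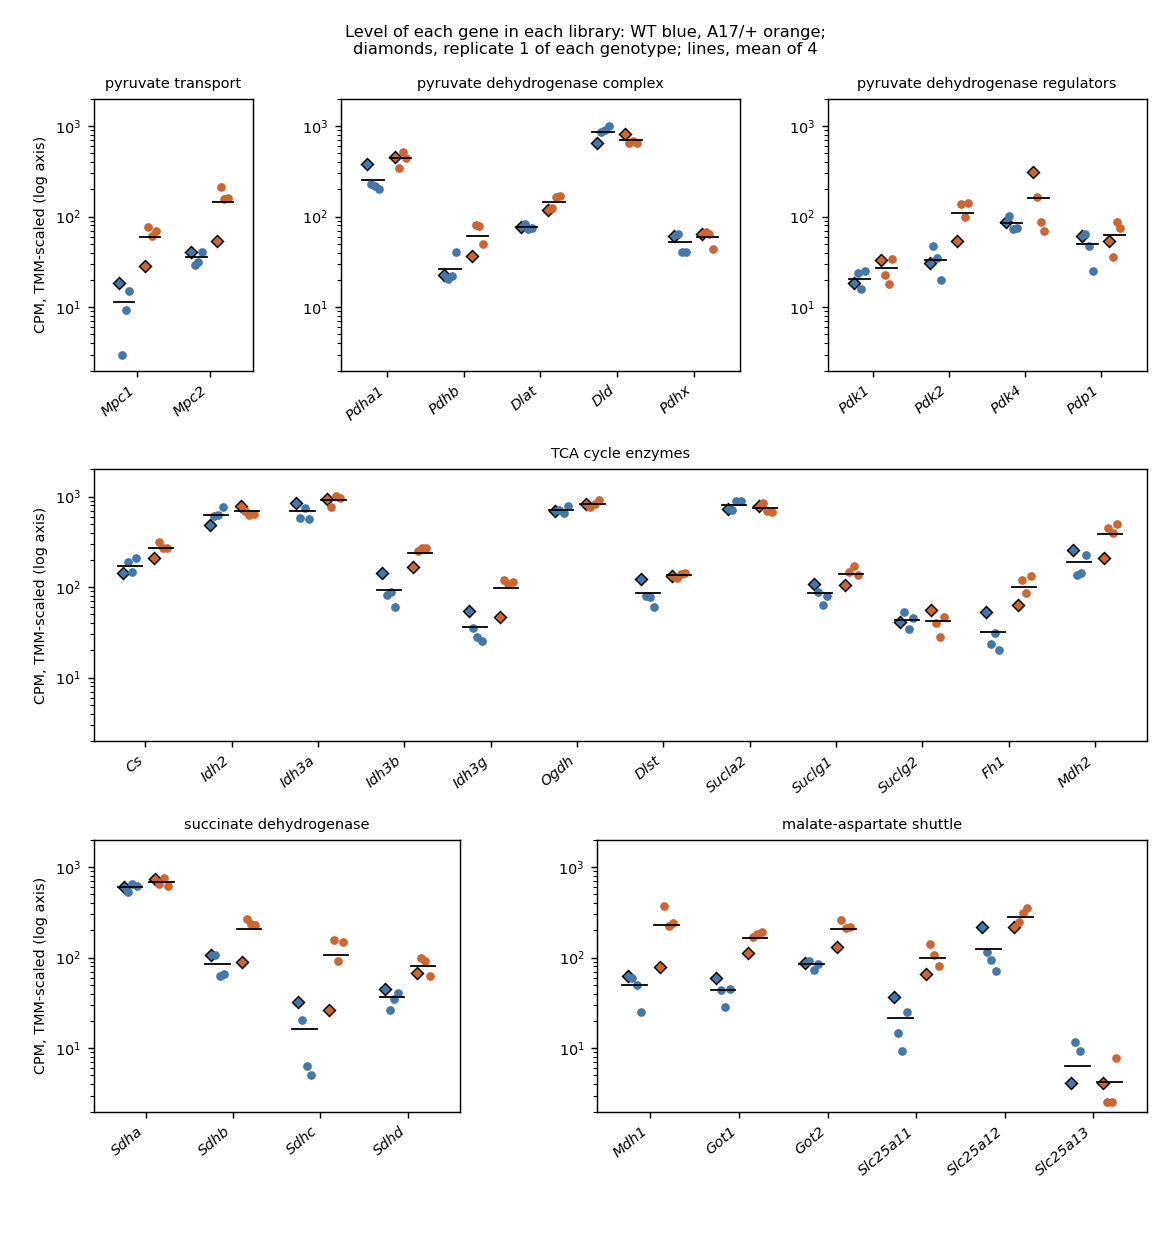
Level of each gene in each library (y axis, CPM on a log axis; WT blue, A17/+ orange; lines, mean of 4), by role, with replicate 1 of each genotype as diamonds. A17/+ 1 is the lowest A17/+ library for 17 of the 19 genes called higher, and Slc25a13 in WT 4, at 0 counts, cannot be drawn.

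In the cycle itself Cs, Idh3b, Idh3g, Fh1 and Mdh2 rose. Citrate synthase, encoded by Cs (ENSMUSG00000005683, chr10:128337734-128362479, plus strand), joins acetyl-CoA to oxaloacetate and had 143, 189, 148 and 212 CPM in WT and 212, 317, 269 and 272 CPM in A17/+. The 1.59-fold rise (log2 0.67, SE 0.20, edgeR adjusted p = 0.0460) had the largest adjusted p among the 19 calls, and A17/+ 1 lay just below WT 4. Without WT 1 the log2 value of Cs was 0.54 and the gene was not called (edgeR adjusted p = 0.0747). Without both libraries numbered 1 it was called (0.69, edgeR adjusted p = 0.0261). Fh1 (ENSMUSG00000026526, chr1:175600374-175625635, minus strand), fumarase, had 53.0, 23.7, 31.4 and 20.2 CPM in WT and 63.7, 119, 87.0 and 132 CPM in A17/+. It rose 2.93-fold without overlap (log2 1.55, SE 0.33, edgeR adjusted p = 0.00858). Mdh2 (ENSMUSG00000019179, chr5:135778480-135790398, plus strand), the mitochondrial malate dehydrogenase, which also belongs to the shuttle, had 257, 136, 145 and 227 CPM in WT and 207, 453, 397 and 498 CPM in A17/+. Its rise was 2.06-fold (log2 1.04, SE 0.28, edgeR adjusted p = 0.0291), with A17/+ 1 inside the WT range.

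The NAD-linked isocitrate dehydrogenase is built from the catalytic alpha chain Idh3a and the beta and gamma chains Idh3b and Idh3g. Idh3b (ENSMUSG00000027406, chr2:130279309-130284547, minus strand) had 145, 82.8, 88.0 and 60.5 CPM in WT and 166, 253, 274 and 267 CPM in A17/+, a 2.49-fold rise without overlap (log2 1.32, SE 0.26, edgeR adjusted p = 0.00629). Idh3g (ENSMUSG00000002010, chrX:73778963-73786897, minus strand) had 55.0, 35.5, 28.3 and 25.2 CPM in WT and 47.2, 119, 108 and 114 CPM in A17/+, a 2.55-fold rise (log2 1.35, SE 0.33, edgeR adjusted p = 0.0175) in which A17/+ 1 lay below WT 1. Idh3a had 856, 586, 742 and 559 CPM in WT and 937, 759.7, 1016 and 957 CPM in A17/+ and did not pass (log2 fold 0.43, 95% interval 0.08 to 0.79, edgeR adjusted p = 0.116). It was called higher without WT 1 (0.53, adjusted p = 0.0385) and without both libraries numbered 1 (0.56, adjusted p = 0.0262). Idh3b overlaps Nop56 on the other strand at its 3' end. The NADP-linked mitochondrial enzyme Idh2 had a mean of 624 ± 119 CPM for WT against 688 ± 74.2 CPM for A17/+ (SD, n = 4; log2 0.17, 95% interval −0.17 to 0.51).

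In the steps from alpha-ketoglutarate to succinate no gene was called from the full counts of all 8 libraries. Without both libraries numbered 1, Dlst and Suclg1 were called higher. Ogdh, the decarboxylase of alpha-ketoglutarate dehydrogenase, had 695, 707, 657 and 791 CPM in WT and 836, 762, 824 and 916 CPM in A17/+ (log2 0.25, 95% interval −0.05 to 0.55). Its partner Dlst, the succinyltransferase core, had 122, 79.9, 78.5 and 60.5 CPM in WT and 131, 127, 141 and 143 CPM in A17/+. The groups of Dlst did not overlap, yet the log2 fold change of 0.64 did not pass (edgeR adjusted p = 0.0925). It was 0.86 without WT 1 (adjusted p = 0.0219) and 0.91 without both libraries numbered 1 (adjusted p = 0.0149). Succinyl-CoA synthetase pairs the shared alpha chain Suclg1 with a beta chain for ADP, Sucla2, or for GDP, Suclg2. Suclg1 had 0.71 with an interval from 0.20 to 1.21 (edgeR adjusted p = 0.0719). It was called without WT 1 (0.83, adjusted p = 0.0346), without A17/+ 1 (0.78, adjusted p = 0.0395), without both (1.00, adjusted p = 0.00965) and after thinning to the smallest library (1.26, adjusted p = 0.0345), and had 0.24 with the length trend removed. Sucla2 had a mean of 811 ± 99.9 CPM for WT against 748 ± 80.3 CPM for A17/+ (SD, n = 4; log2 −0.09, 95% interval −0.41 to 0.23). Suclg2 had a mean of 43.5 ± 7.87 CPM for WT against 42.7 ± 11.5 CPM for A17/+ (SD, n = 4), and its interval, from −0.60 to 0.62, leaves room for either direction.

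Succinate dehydrogenase, respiratory complex II, consists of the flavoprotein Sdha, the iron-sulphur protein Sdhb and the membrane anchors Sdhc and Sdhd. The last 3 genes named rose. Sdhb (ENSMUSG00000009863, chr4:140961203-140979193, plus strand) had 106, 107, 62.8 and 65.5 CPM in WT and 90.4, 268, 238 and 228 CPM in A17/+, a 2.39-fold rise (log2 1.26, SE 0.32, edgeR adjusted p = 0.0201). Sdhc (ENSMUSG00000058076, chr1:171127165-171150603, minus strand) had 32.6, 20.7, 6.28 and 5.04 CPM in WT and 26.7, 157, 92.1 and 150.5 CPM in A17/+. Its fold of 5.67 (log2 2.50, SE 0.63, edgeR adjusted p = 0.0345) was the largest among the members tested and rests on 26 counts in WT, 16 of them in WT 1. The log2 value was 3.13 without WT 1 and 3.51 without both libraries numbered 1, and limma-voom did not call the gene (log2 2.45, adjusted p = 0.206). For both genes A17/+ 1 lay inside the WT range and the other A17/+ libraries above it. Sdhd (ENSMUSG00000000171, chr9:50596357-50603812, minus strand) had 44.8, 26.6, 34.6 and 40.3 CPM in WT and 67.8, 98.8, 92.1 and 62.3 CPM in A17/+, a 2.19-fold rise without overlap (log2 1.13, SE 0.27, edgeR adjusted p = 0.0158). Sdha had 601, 527, 647 and 619.7 CPM in WT and 735, 653, 750.0 and 612 CPM in A17/+ and was not called (log2 0.22, 95% interval −0.08 to 0.53, edgeR adjusted p = 0.358).

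All shuttle genes that could be tested rose. Got1 and Got2 encode the cytosolic and mitochondrial aspartate aminotransferases, Mdh1 the cytosolic malate dehydrogenase, Slc25a11 the malate carrier and Slc25a12 the calcium-activated aspartate-glutamate carrier of muscle and brain. Got1 (ENSMUSG00000025190, chr19:43499752-43524605, minus strand) had 59.1, 44.4, 28.3 and 45.3 CPM in WT and 113, 169.7, 182 and 192 CPM in A17/+. It rose 3.66-fold (log2 1.87, SE 0.27, edgeR adjusted p = 0.00192) and ranked 6 by p among the 5066 genes tested. Got2 (ENSMUSG00000031672, chr8:95864134-95888547, minus strand) had 87.6, 91.7, 72.3 and 85.7 CPM in WT and 129, 261, 212 and 218 CPM in A17/+, a 2.45-fold rise (log2 1.30, SE 0.24, edgeR adjusted p = 0.00486). Neither aminotransferase gene showed overlap between the groups. Got2 has an annotated copy, Got2-ps1, which is not in the count table.

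Mdh1 (ENSMUSG00000020321, chr11:21556787-21572367, minus strand) had 63.2, 59.2, 50.3 and 25.2 CPM in WT and 78.1, 372, 223 and 239 CPM in A17/+, a 4.44-fold rise (log2 2.15, SE 0.43, edgeR adjusted p = 0.0103). Slc25a11 (ENSMUSG00000014606, chr11:70644196-70647479, minus strand) had 36.7, 14.8, 9.43 and 25.2 CPM in WT and 65.7, 142, 108 and 80.4 CPM in A17/+, a 4.39-fold rise (log2 2.13, SE 0.37, edgeR adjusted p = 0.00343). Both were higher in all 4 A17/+ libraries than in any WT library. Slc25a12 (ENSMUSG00000027010, chr2:71271063-71367749, minus strand) had 220.1, 115, 94.3 and 70.5 CPM in WT and 219.8, 246, 315 and 350.3 CPM in A17/+, a 2.19-fold rise (log2 1.13, SE 0.29, edgeR adjusted p = 0.0218), with WT 1 and A17/+ 1 level. Slc25a13, the isoform known from liver, had 9 counts over the WT libraries and 7 over the A17/+ libraries, too few to test with the filter. Without it the log2 fold change was −0.66 with an interval from −2.31 to 0.99.

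A ratio of 2 genes within a library does not depend on scaling, and 4 pairs of isoforms were compared this way with an exact permutation test, two-sided, which runs through all 70 ways of dividing 8 libraries into 2 groups of 4. The log2 ratio of Mdh1 to Mdh2 averaged −1.93 ± 0.818 for WT against −0.89 ± 0.468 for A17/+ (SD, n = 4; exact p = 0.0571). The ratio of Got1 to Got2 averaged −0.94 ± 0.310 for WT against −0.30 ± 0.209 for A17/+ (SD, n = 4; exact p = 0.0571). In both pairs the difference, 1.04 and 0.64, was in the direction of the cytosolic form, but the groups overlapped and neither passed after adjustment over the 4 pairs (adjusted exact p = 0.114). The ratio of Sucla2 to Suclg2 differed by −0.05 (exact p = 0.943, adjusted 0.943). The ratio of Slc25a12 to Slc25a13 differed by 1.63 (exact p = 0.0857, adjusted 0.114) and rests on 16 counts of Slc25a13. The smallest p this design allows is 0.0286.

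Partners of 1 enzyme were also set against each other within each library, as values only, because these pairs were chosen after their fold changes were seen. Relative to Dld, Dlat stood at log2 ratios of −3.04, −3.35, −3.63 and −3.69 in WT and −2.78, −2.38, −2.03 and −1.92 in A17/+, without overlap. Relative to Idh3a, Idh3b stood at −2.56, −2.80, −3.05 and −3.16 in WT and −2.49, −1.58, −1.89 and −1.84 in A17/+. Relative to Sdha, Sdhd stood at −3.72, −4.23, −4.17 and −3.86 in WT and −3.42, −2.71, −3.01 and −3.27 in A17/+. The groups of these 3 pairs, and of Pdhb relative to Dld, did not overlap. For Sdhb and Sdhc relative to Sdha, and for Idh3g relative to Idh3a, A17/+ 1 lay inside the WT range.

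**Figure D3:**
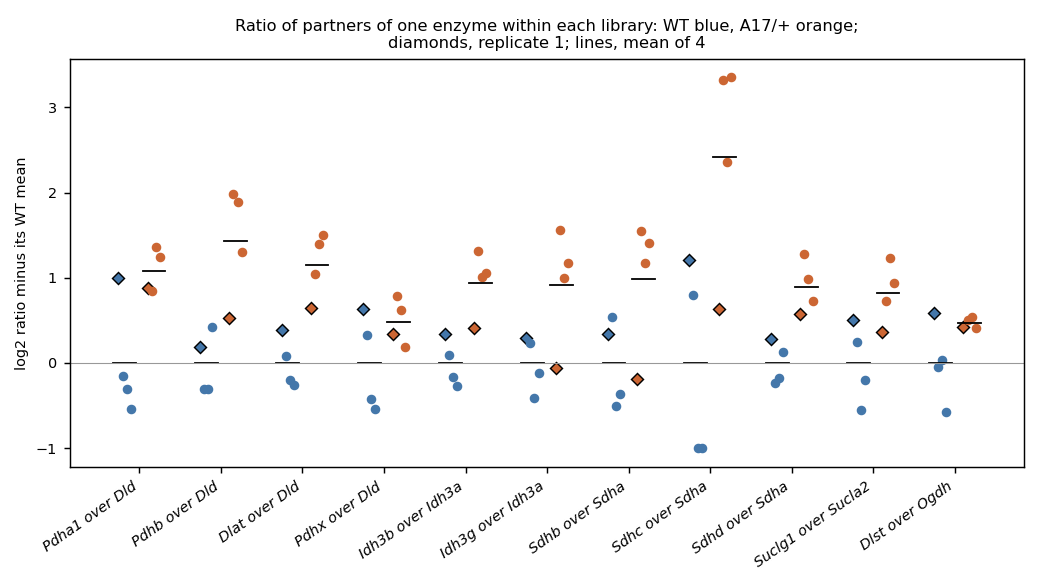
Log2 ratio of a gene to its partner in each library, after subtraction of the pair's WT mean (y axis; WT blue, A17/+ orange; diamonds, replicate 1; lines, mean of 4). The A17/+ means lie above the WT means in all 11 pairs drawn, from 0.47 for Dlst over Ogdh to 2.42 for Sdhc over Sdha. In each pair the divisor is the partner with the lower fold change, so this direction follows from how the pairs were built.

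Further genes of these pathways were listed apart from the members, and 9 of those that could be tested are described here. Their log2 fold changes ran from −0.36 for the phosphatase gene Pdp2 to 0.39 for Me3, mitochondrial malic enzyme, and each of the 9 missed the threshold of the edgeR fit. Among them were Glud1, glutamate dehydrogenase (0.07), and Gpd1 (0.36) and Gpd2 (0.11), the enzymes of the glycerol phosphate shuttle, the other route for cytosolic NADH.

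Fold change went with transcript length in all genes tested, and the members shared this. Across the 31 members the Spearman correlation of log2 fold change with the length of the longest coding transcript was −0.42, and across 5060 genes it was −0.25. Genes measured in the same libraries are not independent, so these are descriptions. Under 1000 nt the single member, Mpc1, was called, in a class where 40.5% of all genes were called higher with a median log2 fold change of 1.27. Of members with 1000 to 2000 nt 8 of 10 were called higher, against 17.7% of all genes of that class. Of those with 2000 to 3000 nt 7 of 13 were called, against 8.43%, and of those with 3000 nt or more 3 of 7 (Dlat, Sdhc and Slc25a12), against 1.88%. With a length trend removed from each library 13 members were called higher, all among the 19, as were 5.25% of all genes. The median in that fit was 0.69 against −0.04 over all genes. Mpc1 and Mpc2 were still called, with log2 fold changes of 1.42 in place of 2.30 and 1.16 in place of 2.04. The 6 no longer called were Sdhb (1.26 to 0.49), Sdhd (1.13 to 0.49), Mdh2 (1.04 to 0.50), Idh3g (1.35 to 0.74), Pdhb (1.30 to 0.83) and Cs. The value of Cs moved little (0.67 to 0.58, edgeR adjusted p = 0.0614), and the gene was near the threshold before. Members not called had more counts, with a median of 1170.5 over the 8 libraries against 329 for those called.

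**Figure D4:**
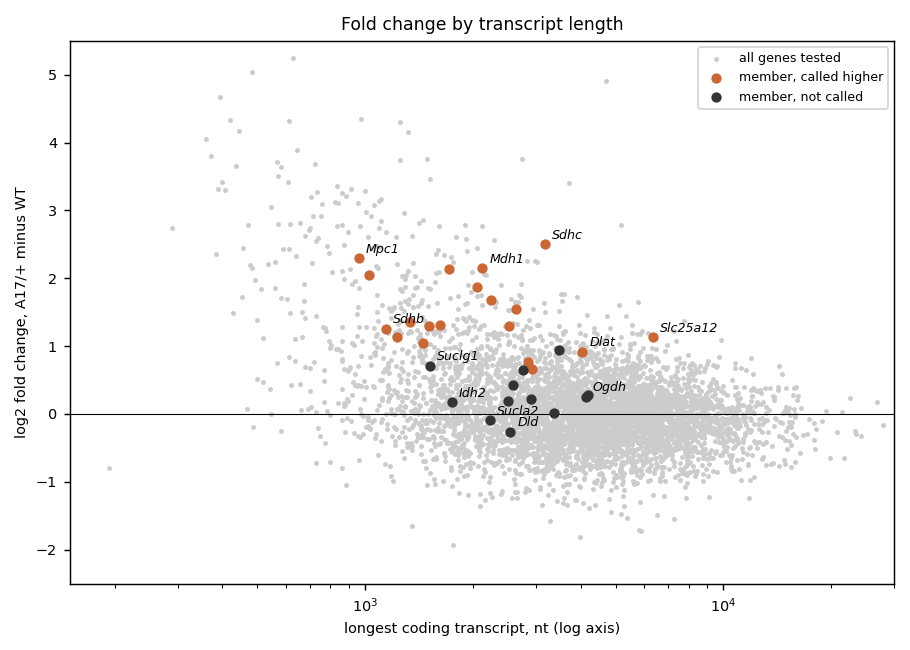
Log2 fold change (y axis, A17/+ minus WT) against the length of the longest coding transcript (x axis, nt, log axis) for all genes tested (grey), members called higher (orange) and members not called (black). Short transcripts lie higher in general, and Slc25a12 at 6351 nt and Dlat at 4035 nt lie above most genes of their length.

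Some of the cell type markers moved as well. Of 12 skeletal muscle markers 6 rose and 0 fell, and the members' sum stood at 5.85% to 7.45% of the muscle marker sum in WT and at 6.65% to 8.86% in A17/+, ranges that overlap. Titin (Ttn), with 12878 to 34727 counts a library, is the main term of that marker sum. Of 13 tongue epithelium markers 12 were tested, 0 rose and 3 fell. Those that fell were Dsp, Krt76 and Dsg3 (log2 −0.85, −0.72 and −0.69), while Krt5 (0.81), Lor (0.79) and Krt13 (0.68) had positive values without a call. The 13 epithelium markers summed to 13713 to 15782 CPM in WT and 10051 to 18847 CPM in A17/+, ranges that overlap. Summed levels of the 7 adipocyte markers in the table were 44.4 to 65.5 CPM in WT and 138 to 230.4 CPM in A17/+, those of 5 red blood cell genes 18.3 to 29.6 and 92.4 to 1195 CPM, and those of 6 macrophage markers 26.6 to 57.1 and 76.0 to 111 CPM. The adipocyte sum rests mainly on Fabp4 and Plin4, both called higher, while Adipoq, Plin1 and Cidec had 0 to 3 counts in each library. The 6 fibroblast markers summed to 439.9 to 625 CPM in WT and 598 to 1104 CPM in A17/+, and the 6 endothelial markers to 334 to 353 and 349 to 382 CPM. Of the fibroblast markers 2 rose and 0 fell. Those that rose were Col3a1 and Dcn (log2 1.31 and 2.24), while Lum (0.09) and Pdgfra (0.11) moved little. No marker of these lists found in the table was at 0 in all libraries. The part of cell composition in the members' differences was not tested.

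The count of 19 depended on single libraries. It was 8 without WT 3 (3.06% of all genes higher), 9 without A17/+ 3 (3.58%), 11 without WT 2 (4.69%), 11 without A17/+ 4 (3.39%) and 12 without WT 4 (4.37%), while the median stayed between 0.88 and 1.16 in the fits that left out 1 library. Mpc1, Mpc2, Pdk2, Idh3b, Fh1, Got1, Got2 and Slc25a11 were called in all 8 of these fits, and Mdh1 in 7, with an adjusted p of 0.0555 without WT 3. The other 10 were called in between 1 (Cs) and 5 (Dlat and Sdhd) of the 8. Without WT 1 the count was 21 (9.28% of all genes higher) and without A17/+ 1 it was 20 (10.7%). Without both it was 22 higher and 1 lower (14.2% of all genes higher). Scaled by library totals alone, the median over all genes moved to −0.11, the calls over all genes went from 321 higher and 132 lower to 279 and 289, and the members still had 17 higher and 0 lower.

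Promoter windows, from 250 bases before to 50 after the annotated start, were found in RefSeq (build GRCm38.p6) for 30 of the 33 members and were searched on both strands for motifs of regulators of mitochondrial genes. The motifs were TNAAGGTCA, the element of the oestrogen-related receptors, the palindromic NRF1 element, with its middle base free, and CACGTG, the E-box. At least 1 of them was present in 7 of the 30 members and in 13.8% of all 27025 genes of the RefSeq table. TNAAGGTCA was found in Sdhd (1.43% of all genes), the NRF1 element in Dld, Sdha, Sdhd and Sucla2 (5.19%) and CACGTG in Ogdh, Pdk2 and Slc25a13 (8.09%), and no matches overlapped. Of the 18 called members with a window, 2 held a motif, Pdk2 and Sdhd, and the Sdha window held the NRF1 element 3 times although Sdha was not called. The 250 bases before the start of the 2 called genes are printed to show where the match lies, on the minus strand of the genome, at chr11:95041372-95041621 for Pdk2 and chr9:50603850-50604099 for Sdhd, with CACGTG and the NRF1 element in capitals. A match describes letters and is no evidence of binding.
Pdk2: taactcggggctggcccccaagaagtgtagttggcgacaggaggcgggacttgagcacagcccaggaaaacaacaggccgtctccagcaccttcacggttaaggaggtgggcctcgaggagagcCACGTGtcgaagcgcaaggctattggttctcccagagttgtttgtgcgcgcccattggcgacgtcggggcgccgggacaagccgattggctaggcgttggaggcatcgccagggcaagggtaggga
Sdhd: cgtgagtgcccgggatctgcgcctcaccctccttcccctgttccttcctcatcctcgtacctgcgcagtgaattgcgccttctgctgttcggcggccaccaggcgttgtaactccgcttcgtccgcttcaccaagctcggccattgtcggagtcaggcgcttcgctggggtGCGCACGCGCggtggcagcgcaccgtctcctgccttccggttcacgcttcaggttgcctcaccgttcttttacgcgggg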

How the data were processed

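RNA was measured by mcSCRB-seq, a 3' method in which molecular identifiers let each RNA be counted once, in 8 tongue libraries. Per the submitters' processing notes the authors used cutadapt 2.10, STAR 2.7.5a, UMI-tools 1.1.1, HTSeq and mm10. Settings, strand and annotation release are not given in the sources used here. Whole-number counts for Ensembl identifiers were deposited by the authors in 1 table. Log2 CPM values of 10709 genes, also deposited, library by library, fitted the counts with a mean prior count of 2.00 and served as an alternative.

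Of 19857 identifiers 19677 had a symbol in GENCODE M21 (GRCm38), which also gave places, lengths and overlaps within 400 nt of the 3' end. Genes were filtered with filterByExpr (minimum count 10, minimum total 15), scaled by TMM and fitted by edgeR 4.0.16 (robust quasi-likelihood, genotype only) in R 4.3.3. The fit was tested on simulated data, where it called 52.6% of genes changed 2-fold and 98.0% of those changed 4-fold. That simulation covered all genes, and a member not called may still differ within its interval. Among tested members not called the interval reached 2-fold only for Pdk4, Suclg1 and Dlst, with upper ends at log2 1.83, 1.21 and 1.13. Samples were grouped by their labels as 4 mice per genotype. Intervals are 95% intervals of the fit. Counts carry counting error, so a gene with 10 counts in a library is imprecise. Alternatives were other scalings, DESeq2 1.42.0, limma 3.58.1, other filters, thinning, a loess length trend (span 0.5), a replicate block and leaving out libraries.

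Members and lists were chosen with earlier results of these data known. All members were accounted for, with every library's value for those past the threshold and for others that bear on them. The further pathway genes that are named were picked with their values in view, and 1 item of that list is not reported here. Promoters were printed for called members whose window held a motif. Proteins were not printed.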

Additional observations from a re-analysis of the deposited data

Results flagged for a closer look

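Levels of the 33 genes were searched for a single library far from the other 3 of its genotype, and 3 of 66 groups of 4 held such a library. Chance gives about 5% of such groups. Pdha1 in WT 1, at 381 CPM, lay apart from the other WT libraries, the gap being 0.854 of the group's range. Pdhb in WT 4, at 40.3 CPM, lay above the other WT libraries by 0.913 of the range. Idh3g in A17/+ 1, at 47.2 CPM, lay below the other A17/+ libraries by 0.840 of the range.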

How the results depend on the processing

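The 19 members higher became 11 with limma-voom (2.86% of all genes higher), and between 8 and 21 when 1 library was left out. Those that limma-voom did not call were Mpc2, Pdhb, Cs, Idh3g, Mdh2, Sdhb, Sdhc and Mdh1. The 0 members lower became 1, Dld, without both libraries numbered 1. The other settings gave 13 to 22 higher. Over all genes, the 321 higher became 145 with limma-voom, 615 without a filter, 207 after thinning, 538 with limma-trend on the deposited log2 values, 695 without both libraries numbered 1 and 172 to 586 with 1 library left out. The 132 lower became 289 with library totals, 83, 238, 61, 259, 330 and 38 to 383 in the same order, and 249 with the length trend removed. With the replicate number as a block 17 members were higher and 0 lower (6.14% of all genes higher). Labels do not say whether equal numbers belong together. Correlations of deviations between libraries of equal number ran from −0.16 to 0.072, too few pairs to settle it. In a chi-square comparison of counts, WT 1 and A17/+ 1 were each the other's nearest library, at 3.45 per degree of freedom. Next nearest to WT 1 was WT 2 (3.98), and next nearest to A17/+ 1 was A17/+ 3 (4.03). Some pairs within a genotype came closer, such as WT 3 with WT 4 (1.56) and A17/+ 3 with A17/+ 4 (1.83). The value also depends on library totals, and WT 1 and A17/+ 1 had the largest total of their genotype. Whether the libraries numbered 1 share a batch was not tested. The isoform ratios could not pass under the block, where the smallest p is 0.125.

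Sign changes were limited to values near 0. Idh2 had −0.17 with the length trend removed and Sucla2 had 0.013 after thinning. Suclg2 had −0.0018 with RLE scaling, −0.012 with upper quartile scaling, −0.11 with library totals, −0.0055 with DESeq2, −0.0088 with limma-voom, −0.041 without a filter, −0.018 with the length trend removed, −0.10 with limma-trend, −0.18 without both libraries numbered 1 and −0.19 to 0.16 with 1 library left out. The ratio of Sucla2 to Suclg2 ran from −0.21 to 0.097 with 1 library left out. The cause was not tested. Library size limits what can be seen: Pdk1 and Slc25a13 could not be tested with the filter.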
